A study of Mus musculus with 24 samples.

Results

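A set of 9 basement membrane genes was followed through the series: the laminin chain genes Lama1, Lamb1 and Lamc1, the collagen IV chain genes Col4a1 and Col4a2, the nidogen genes Nid1 and Nid2, the perlecan gene Hspg2, and Sparc. They were taken from the deposited count table by gene symbol, and all 9 of the 9 symbols were found among its 23284 rows. All 9 passed the filter on low counts. Poly(A) RNA was sequenced from embryonic stem cells of C57BL/6 mice that carry a conditional allele of Eed, and in embryoid bodies, the free-floating aggregates in which such cells begin to differentiate. Eed encodes a core subunit of Polycomb repressive complex PRC2. The 4 genotypes were f/f (the conditional line without tamoxifen), KO (the line after 800 nM 4-OH tamoxifen), KO+WT (tamoxifen, with wild-type EED put back) and KO+N-KR (tamoxifen, with the EED form labelled N-KR put back, which the labels do not spell out). Each genotype was sampled as stem cells (the state 3i of the labels), as day 1 embryoid bodies and as day 2 embryoid bodies, which makes 12 groups of 2 libraries. Per the labels' protocols, the stem cell culture used serum, LIF and a feeder layer of mouse embryonic fibroblasts, cells that make basement membrane proteins themselves. Comparisons with f/f also differ in tamoxifen, and all genotype comparisons differ in line history, so these cannot be told apart from the genotype.

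A basement membrane is the thin sheet of extracellular matrix that underlies epithelia. Laminin is a trimer of an alpha, a beta and a gamma chain that polymerises on the cell surface, and collagen IV, a trimer whose most widespread form holds chains from Col4a1 and Col4a2, builds the covalent network beside it. Nidogens and perlecan, a large heparan sulfate proteoglycan, link these networks, and SPARC is a secreted glycoprotein that binds collagen. In the early mouse embryo, primitive endoderm and its parietal descendants are known as strong producers of laminin and collagen IV, and embryoid bodies form a basement membrane between an outer endoderm layer and the inner cells.

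Col4a1 and Col4a2 lie head to head, so their start regions are shown first, because the 4 genotypes stood in the same order for both genes in each state. The RefSeq promoter table (GRCm38.p6) holds a window from 250 bases before to 50 bases after the start for 6 of the 9 genes, those for Lamb1, Col4a1, Col4a2, Sparc, Nid1 and Hspg2. No window was read for Lama1, Lamc1 and Nid2. The Col4a1 window is chr8:11312777-11313076 on the minus strand and the Col4a2 window is chr8:11312555-11312854 on the plus strand. Each is printed 5′ to 3′ on its own strand, and the capitals mark the 78 bases that the 2 windows share.

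Col4a1: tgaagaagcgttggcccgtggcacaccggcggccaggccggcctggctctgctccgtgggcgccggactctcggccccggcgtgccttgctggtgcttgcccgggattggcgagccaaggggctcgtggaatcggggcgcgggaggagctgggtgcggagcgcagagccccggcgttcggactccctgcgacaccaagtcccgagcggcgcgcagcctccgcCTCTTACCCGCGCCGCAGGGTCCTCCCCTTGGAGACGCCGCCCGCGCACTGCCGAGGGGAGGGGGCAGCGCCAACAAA

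Col4a2: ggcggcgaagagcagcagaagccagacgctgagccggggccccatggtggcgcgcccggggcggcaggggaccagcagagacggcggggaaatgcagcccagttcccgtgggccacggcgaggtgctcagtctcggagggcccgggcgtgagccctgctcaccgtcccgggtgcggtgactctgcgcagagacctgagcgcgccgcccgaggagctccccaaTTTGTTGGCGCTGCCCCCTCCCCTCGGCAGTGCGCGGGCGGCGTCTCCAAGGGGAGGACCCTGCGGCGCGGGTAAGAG

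The annotated start sites were 21 bases apart, and the 2 windows had a GC content of 74% and 73.7%. On both strands, CCAAT was found 1 time in each window, against 37.4% of all 32851 promoter windows of this length that hold it. GGGCGG was found 1 time in the Col4a1 window and 3 times in the Col4a2 window, with 1 of these matches in the shared stretch, against 35.7% of all windows. AGATAA (held by 11.2% of all windows) and TATAAA (13.6%) were not found in any of the 6 windows. None of the 4 motifs is contained in another, and a match is a description only. The counts were made on another build, mm9, with a strand setting not given in the sources used here, and reads from overlapping transcripts of this pair cannot be told apart.

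The libraries held 7553683 to 14426034 counts each. Within a group, the pair of libraries was nearly as close as repeat sequencing: their differences had 1.10 to 1.18 times the binomial variance, while 2 genotypes of a state gave 2.81 to 15.5 times. The pairs were therefore summed and counted as 1 sample, giving 12 samples of 18017598 to 25160294 counts. Nothing in the labels says that the 2 libraries came from separate cultures. Among the 9 genes, the widest gap between the 2 libraries of a group was 18.1% for Lama1 and 11.5% for Col4a2, and at most 10.1% for the others. Genotypes were compared over the 3 states and states over the 4 genotypes in 1 additive edgeR fit, so p-values measure how evenly a difference held across states or genotypes and not the spread between cultures. Eed itself was at 174, 137, 387 and 168 CPM (read counts relative to the library total, TMM-scaled) at 3i in f/f, KO, KO+WT and KO+N-KR. Its fall in KO against f/f was small (log2 fold change -0.35 ± 0.10 SE, adjusted p = 0.0479), and since the deleted part of the gene is not stated, its total count does not check the deletion. Of the 9 pluripotency genes looked at as an identity check (such as Pou5f1, Nanog and Klf4), all were expressed, with summed levels of 7021 to 8493 CPM at 3i and 4671 to 4926 CPM at day 2.

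The 3 laminin chain genes followed different courses from stem cells to embryoid bodies. Lama1, which encodes the alpha 1 chain, was at 113 CPM in f/f, 141 in KO, 153 in KO+WT and 226 in KO+N-KR at 3i. At day 1 it was at 24.2, 34.8, 23.2 and 59.7 CPM in the same order. At day 2 it was at 20.5, 29.5, 28.1 and 58.2 CPM. Every embryoid body sample thus lay below every 3i sample, and KO+N-KR was the highest of the 4 genotypes in each state. Lama1 fell 4.63-fold from 3i to day 1 (log2 -2.21 ± 0.11, edgeR adjusted p = 1.9e-09) and stayed there, with a day 2 to day 1 difference of -0.07 ± 0.11 (adjusted p = 0.63).

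Lamb1, which encodes the beta 1 chain, went the other way. It was at 117, 129.7, 140.0 and 167 CPM at 3i in f/f, KO, KO+WT and KO+N-KR. It was at 127, 159, 165 and 185 CPM at day 1, and at 202, 226, 238 and 269.9 CPM at day 2. All 4 day 2 samples were above all 8 others, and the order f/f, KO, KO+WT, KO+N-KR was the same in each state. Lamb1 rose 1.69-fold from 3i to day 2 (log2 0.76 ± 0.05, adjusted p = 1.5e-08). The step to day 1 was smaller (0.20 ± 0.05, adjusted p = 0.0021) and was not called when samples were scaled by library totals alone (0.10, adjusted p = 0.073).

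Lamc1, which encodes the gamma 1 chain common to most laminins, was at 493, 537, 678 and 627 CPM at 3i. It was at 473, 449, 540.4 and 555 CPM at day 1, and at 325, 312, 303 and 328 CPM at day 2. The day 2 samples were below all others and lay within 25 CPM of each other. Lamc1 fell by 0.87 ± 0.07 on the log2 scale from 3i to day 2 (adjusted p = 2.0e-07), most of it after day 1.

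**Figure D1:**
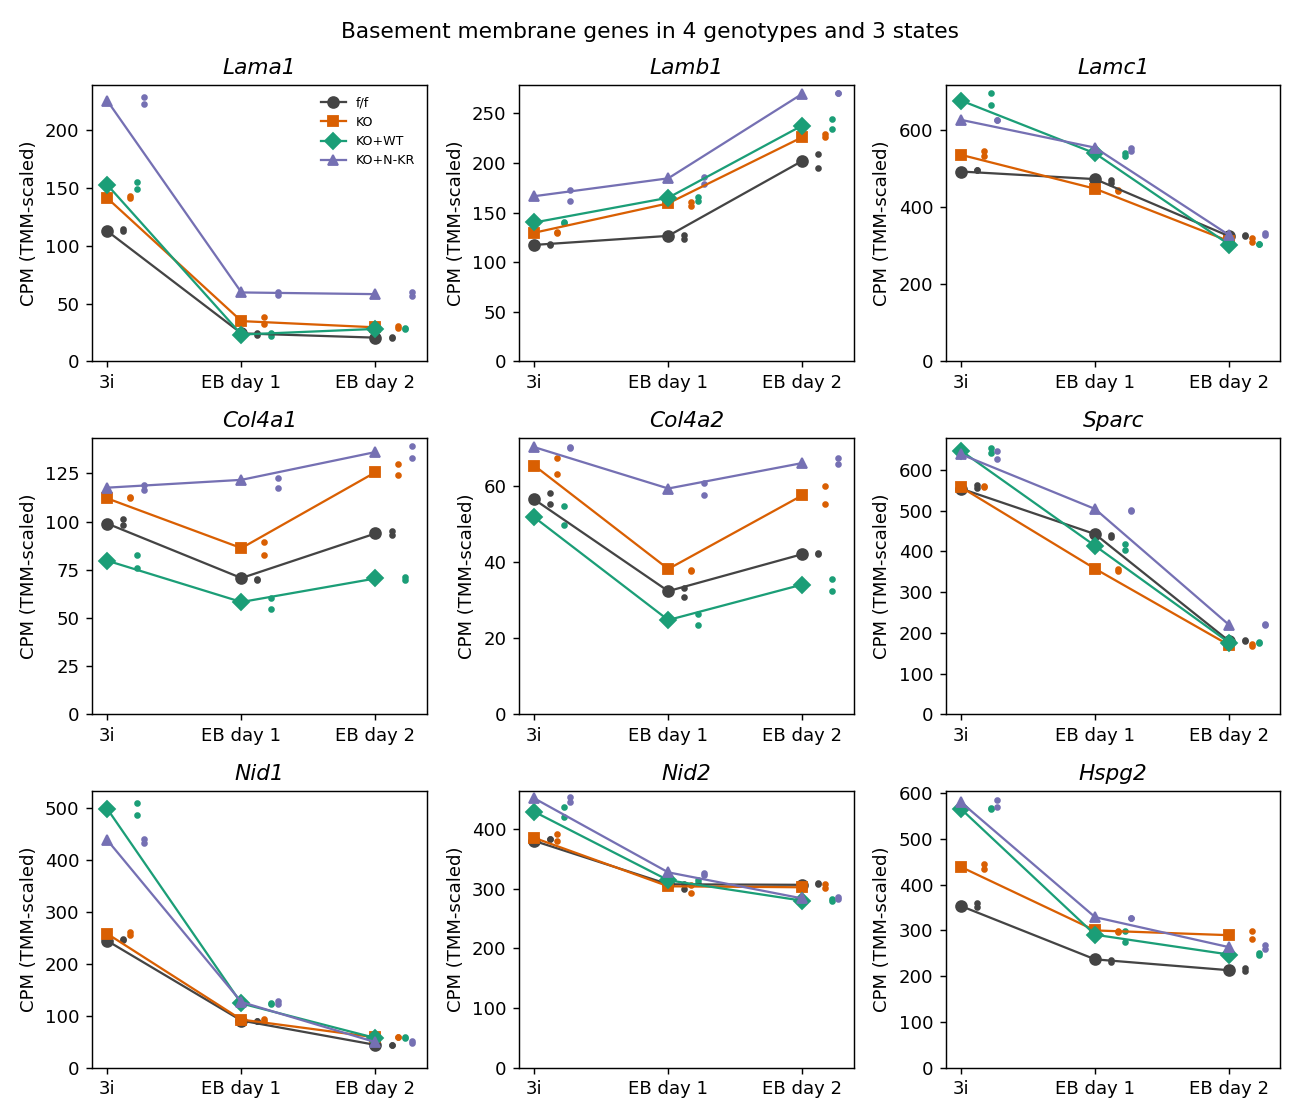
Levels of the 9 genes in TMM-scaled CPM (y axis, from 0) in the 3 states (x axis) for 4 genotypes. Large symbols are the 12 summed samples and small dots beside them the 2 libraries of each; Lama1 and the collagen IV genes are highest in KO+N-KR in each state, and Lamb1 rises while Sparc and Nid1 fall toward day 2.

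Over the 4 genotypes, the collagen IV pair was lower at day 1 than at 3i and rose again to day 2. Col4a1 was at 99.0, 112, 79.7 and 118 CPM at 3i in f/f, KO, KO+WT and KO+N-KR. At day 1 it was at 70.7, 86.3, 58.3 and 122 CPM. At day 2 it was at 93.8, 126, 70.5 and 136 CPM. KO+WT was the lowest and KO+N-KR the highest in each state, and the states overlapped. Col4a1 was lower at day 1 than at 3i in f/f, KO and KO+WT, and was not in KO+N-KR. Col4a1 fell by 0.31 ± 0.08 on the log2 scale from 3i to day 1 (adjusted p = 0.0039) and rose by 0.34 ± 0.08 from day 1 to day 2 (adjusted p = 0.0028), so that day 2 against 3i was 0.03 ± 0.08 (adjusted p = 0.76).

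Col4a2 was at 56.5, 65.4, 51.8 and 70.2 CPM at 3i, at 32.4, 38.2, 24.8 and 59.4 CPM at day 1, and at 42.1, 57.6, 34.1 and 66.1 CPM at day 2. The 4 genotypes stood in the same order as for Col4a1 in each state. It fell by 0.71 ± 0.10 on the log2 scale to day 1 (adjusted p = 3.5e-05) and rose by 0.39 ± 0.10 to day 2 (adjusted p = 0.0059). Day 2 remained below 3i by the test (-0.32 ± 0.10, adjusted p = 0.012), a call that was lost without f/f (-0.29, adjusted p = 0.072) and without KO+WT (-0.23, adjusted p = 0.080).

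The linkers fell through both steps or levelled off. Nid1, which encodes nidogen-1, was at 244, 257, 497 and 437 CPM at 3i, at 90.6, 92.5, 123 and 126 CPM at day 1, and at 43.8, 58.3, 57.0 and 49.1 CPM at day 2. The 3 states did not overlap, and at 3i both rescue lines lay far above f/f and KO. Nid1 fell 6.62-fold from 3i to day 2 (log2 -2.73 ± 0.14, adjusted p = 2.6e-09), the widest change with state among the 9 genes.

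Nid2, which encodes nidogen-2, was at 379.7, 385, 429 and 451 CPM at 3i, at 307, 304, 314 and 327 CPM at day 1, and at 306, 302, 279.6 and 283 CPM at day 2. All embryoid body samples were below all 3i samples, but the step was only 1.31-fold to day 1 (log2 -0.39 ± 0.06, adjusted p = 4.5e-05). Hspg2, which encodes perlecan, was at 353, 439, 565 and 580.2 CPM at 3i, at 237, 300.0, 291 and 329 CPM at day 1, and at 213, 289.6, 247 and 263 CPM at day 2. It fell by 0.73 ± 0.08 on the log2 scale to day 1 (adjusted p = 3.8e-06), and f/f was the lowest of the 4 genotypes in each state.

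Sparc was at 554, 557, 646 and 638 CPM at 3i, at 442, 357, 413 and 504 CPM at day 1, and at 179.9, 169.9, 176 and 219.6 CPM at day 2. The 3 states did not overlap. It fell by 0.49 ± 0.06 on the log2 scale to day 1 (adjusted p = 1.0e-05) and by a further 1.20 ± 0.06 to day 2 (adjusted p = 1.8e-08).

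Between 3i and day 1, 8 of the 9 genes fell and 1, Lamb1, rose, where 33.2% of the 15220 genes tested fell and 32.4% rose. Between 3i and day 2, 7 fell and Lamb1 rose, where 30.5% of all genes fell and 33.0% rose. The median log2 change of the 9 genes was -0.49 at day 1 and -0.87 at day 2, against -0.01 and 0.02 over all genes tested. Between day 1 and day 2, Lamb1, Col4a1 and Col4a2 rose (28.2% of all genes rose) and Lamc1, Nid1 and Sparc fell (27.2% fell). Both embryoid body comparisons share the 3i samples. In bulk samples, fewer cells of a type and less RNA per cell cannot be told apart.

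Markers of the feeder fibroblasts were lower in embryoid bodies than at 3i. Of 15 tested fibroblast genes, 12 fell and 1 rose from 3i to day 1, and 11 fell and 2 rose from 3i to day 2. Of all genes tested, 33.2% fell and 32.4% rose to day 1, and 30.5% fell and 33.0% rose to day 2. From day 1 to day 2, 6 of the 15 rose and 4 fell, where 28.2% of all genes rose and 27.2% fell. The summed level of the fibroblast list was 485 to 810.3 CPM at 3i, 64.8 to 128 CPM at day 1 and 70.3 to 158 CPM at day 2. Acta2, the smooth muscle actin gene, was at 33.5 to 59.3 CPM at 3i and at 0.194 to 0.390 CPM at day 1. Col1a1, a fibrillar collagen chain, fell from 207 to 352 CPM at 3i to 18.1 to 34.2 CPM at day 1. The part of feeder RNA in the 3i levels of the 9 genes was not tested.

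Levels of different genes are compared here per kb of exon, from GENCODE vM21 lengths, as mean ± SD over the 4 genotypes. At 3i, Sparc led at 158 ± 13.3 CPM per kb. Nid2 (79.4 ± 6.67), Lamc1 (70.6 ± 10.2), Nid1 (51.7 ± 18.4) and Hspg2 (33.9 ± 7.55) followed, and neighbours in this order overlapped within 1 SD. Lama1 (16.3 ± 4.96), Lamb1 (14.0 ± 2.11) and Col4a1 (13.7 ± 2.25) were not separated from each other either, and Col4a2 was lowest at 9.21 ± 1.26. At day 2, Nid2 (56.6 ± 2.56) and Sparc (49.2 ± 5.93) led without separation beyond their SDs, and Lamc1 (38.3 ± 1.39) and Lamb1 (23.6 ± 2.84) came next. Hspg2 (17.7 ± 2.24) and Col4a1 (14.3 ± 4.01) overlapped, as did Col4a2 (7.55 ± 2.19) and Nid1 (7.50 ± 0.987). Lama1 was last at 3.52 ± 1.71 CPM per kb.

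The ratios between partner chains shifted accordingly. Lamb1 over Lama1, per kb, was 0.721 to 1.02 at 3i over the 4 genotypes, 3.02 to 6.94 at day 1 and 4.53 to 9.62 at day 2. The ranges of 3i and day 2 did not overlap, and KO+N-KR had the lowest ratio in each state. Lamc1 over Lamb1 went from 4.52 to 5.80 at 3i down to 1.46 to 1.93 at day 2. Col4a1 over Col4a2, in contrast, stayed between 1.36 and 2.08 in all 12 samples, with 1.36 to 1.55 at 3i and 1.82 to 2.08 at day 1. Nid2 over Nid1 was 1.16 to 2.09 at 3i and 6.58 to 9.38 at day 2. These ratios rest on 1 summed sample per genotype and state and were not tested.

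**Figure D2:**
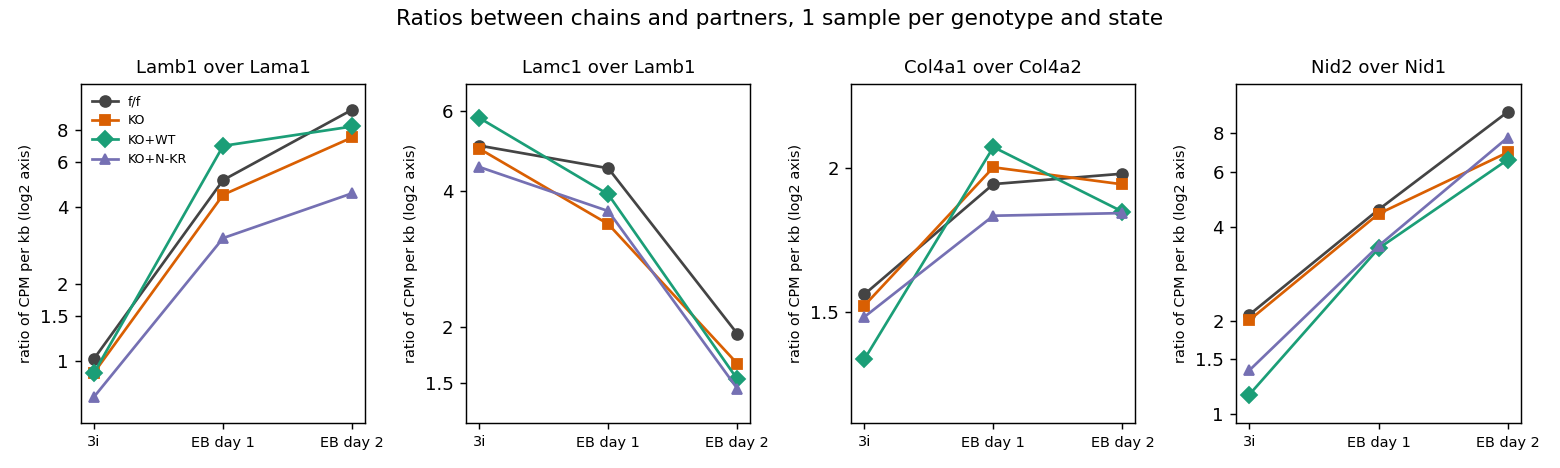
Ratios of CPM per kb between partner genes (y axis, log2-spaced) in 3 states (x axis), 1 point per genotype and state. Lamb1 over Lama1 climbs from 0.721 to 1.02 at 3i to 4.53 to 9.62 at day 2, while Col4a1 over Col4a2 keeps within 1.36 to 2.08.

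The 2 rescue lines differed from each other in Lama1, Col4a1 and Col4a2. These 3 genes were higher in KO+N-KR than in KO+WT in each state, whereas the other 6 genes did not pass the test. Lama1 was 1.94-fold higher over the 3 states (log2 0.96 ± 0.12, edgeR adjusted p = 0.0011). Col4a1 was 1.82-fold higher (0.86 ± 0.09, adjusted p = 0.00044) and Col4a2 1.84-fold (0.88 ± 0.12, adjusted p = 0.0019). So 3 of 9 genes were called higher, where 0.296% of all genes were higher (45 of 15220) and 0.256% lower (39). The 9 genes were chosen with earlier results of these data known, so neither this count nor those in the other comparisons test the set. Eed RNA also differed between these lines: it was lower in KO+N-KR by the test (-0.97 ± 0.10, adjusted p = 0.00030), at 182 against 373 CPM at day 1 and 121 against 188 CPM at day 2. Against KO, Eed was at 1.17 ± 0.10 in KO+WT (adjusted p = 1.7e-05) and at 0.20 ± 0.10 in KO+N-KR (adjusted p = 0.19). The part of the Eed level in the Lama1 and collagen IV differences was not tested. By p-value, Col4a1 ranked 13, Lama1 27 and Col4a2 33 among the 15220 genes.

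Within the states, the ratio of KO+N-KR to KO+WT was smallest at 3i and largest at day 1. For Lama1 it was 1.48 at 3i, 2.56 at day 1 and 2.07 at day 2. For Col4a1 it was 1.47, 2.08 and 1.93, and for Col4a2 it was 1.35, 2.39 and 1.93. At day 1 these were the 3 of 9 genes past 2-fold, where 0.184% of all genes were past 2-fold higher. At day 2, Lama1 alone was (0.0788% of all genes). The difference between states was not tested, since each genotype and state holds 1 summed sample.

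The remaining 6 genes gave small differences between the rescue lines. Lamb1 was at 0.20 ± 0.05 (adjusted p = 0.22), Sparc at 0.19 ± 0.07 (adjusted p = 0.49) and Hspg2 at 0.10 ± 0.09 (adjusted p = 0.92). Lamc1 was at 0.01 ± 0.08, Nid2 at 0.05 ± 0.07 and Nid1 at -0.12 ± 0.15. Hence the alpha 1 chain gene differed while the beta 1 and gamma 1 chain genes did not pass the test. The calls for Lama1 and Col4a1 held in each of the 11 other settings tried (highest adjusted p 0.040 and 0.026). The call for Col4a2 was lost without day 1 (0.69, adjusted p = 0.090) and without day 2 (0.84, adjusted p = 0.061).

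**Figure D3:**
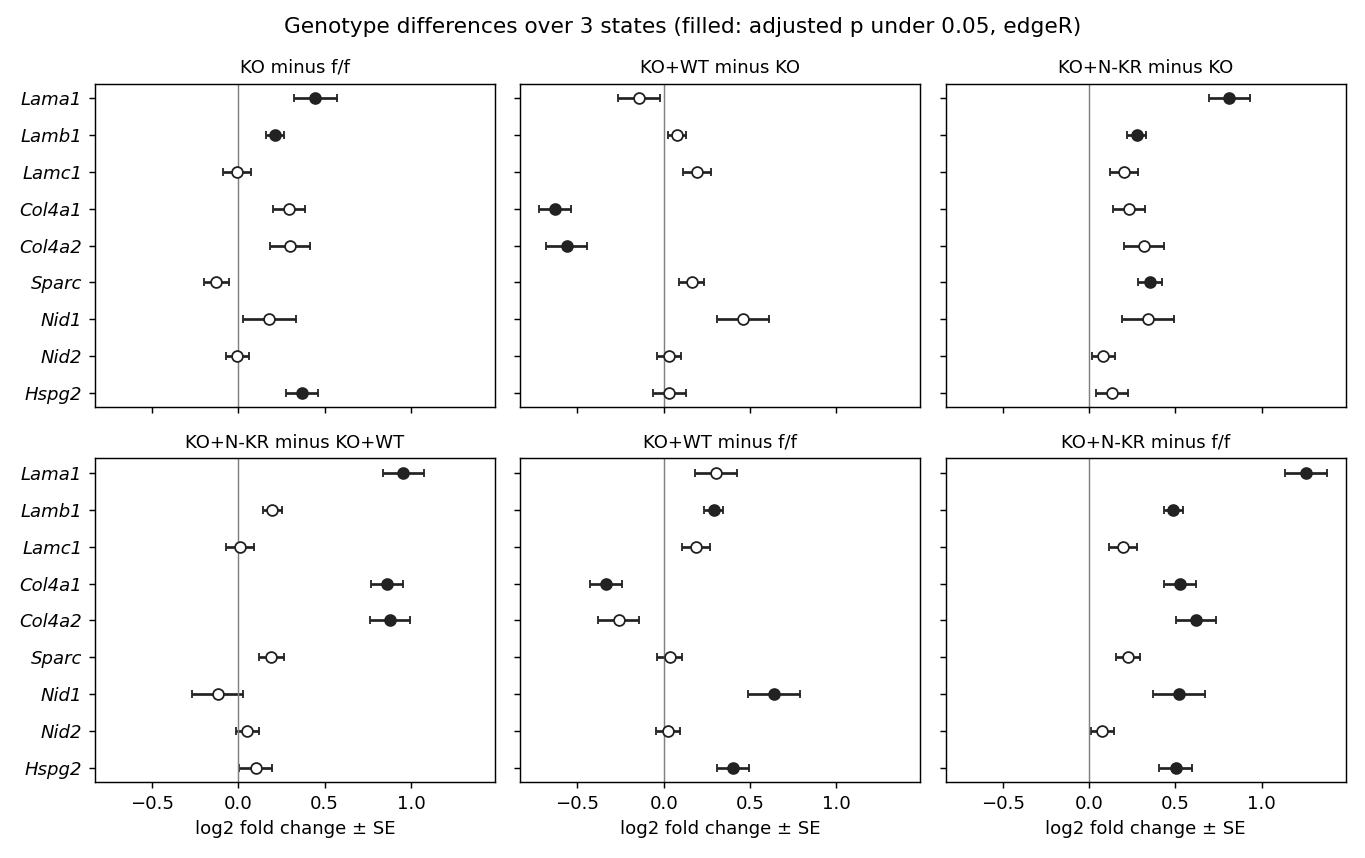
Log2 fold change ± SE (x axis) of the 9 genes (y axis) in 6 genotype comparisons over the 3 states, from edgeR; filled points passed an adjusted p of 0.05. KO+N-KR minus KO+WT shows Lama1, Col4a1 and Col4a2 apart from the other 6 genes, and KO+WT minus KO shows only the collagen IV pair called.

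Against KO, the collagen IV pair was called in KO+WT, and Lama1, Lamb1 and Sparc were called in KO+N-KR. In KO+WT, Col4a1 fell by 0.63 ± 0.09 on the log2 scale (1.55-fold, adjusted p = 0.00083) and Col4a2 by 0.56 ± 0.12 (1.48-fold, adjusted p = 0.0066), where 8.73% of all genes fell and 7.10% rose. Col4a2 was not called without day 1 (-0.55, adjusted p = 0.063) or without day 2 (-0.46, adjusted p = 0.11). Nid1 was at 0.46 ± 0.15 (adjusted p = 0.055), and Lama1 at -0.15 ± 0.12 (adjusted p = 0.46).

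In KO+N-KR against KO, Lama1 rose 1.75-fold (0.81 ± 0.12, adjusted p = 0.00085), Lamb1 1.21-fold (0.28 ± 0.05, adjusted p = 0.0045) and Sparc 1.28-fold (0.35 ± 0.07, adjusted p = 0.0053). Here 6.77% of all genes rose and 8.67% fell. Col4a1 was at 0.23 ± 0.09 (adjusted p = 0.11) and Col4a2 at 0.32 ± 0.11 (adjusted p = 0.080), so the collagen IV pair was not called in this line. Without day 1, Lamb1 (0.30, adjusted p = 0.083) and Sparc (0.28, adjusted p = 0.14) lost their calls and Lama1 kept its own. Both comparisons share the KO samples.

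KO against f/f showed 3 of 9 genes higher, where 4.45% of all genes were higher and 4.32% lower. They were Lama1 (0.45 ± 0.12, adjusted p = 0.042), Hspg2 (0.37 ± 0.09, adjusted p = 0.034) and Lamb1 (0.21 ± 0.05, adjusted p = 0.032). Col4a1 was at 0.30 ± 0.09 (adjusted p = 0.063) and Col4a2 at 0.30 ± 0.12 (adjusted p = 0.11). All 3 calls were lost without day 1 (Lama1 0.41, Hspg2 0.38, Lamb1 0.15) and without day 2 (0.41, 0.32 and 0.23), with adjusted p from 0.070 to 0.38. Without the second library of each group, Lama1 (0.41, adjusted p = 0.066) and Lamb1 (0.20, adjusted p = 0.063) were not called either, and Lamb1 was not with only these 2 genotypes fitted (0.21, adjusted p = 0.074). With samples scaled by library totals alone, the split of all called genes moved from 678 higher and 657 lower to 1073 and 323.

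Against f/f, KO+N-KR had 6 of 9 genes higher, where 3.75% of all genes were higher and 5.23% lower. Lama1 was 2.39-fold higher (1.26 ± 0.12, adjusted p = 5.9e-05). Within the states it was 2.00-fold, 2.46-fold and 2.83-fold higher at 3i, day 1 and day 2. It thus reached 2-fold in each, as 0.388%, 0.427% and 0.237% of all genes did. At 3i it lay on the cut, and this count changed with a library number left out. Lamb1 (0.49 ± 0.05, adjusted p = 0.00012), Col4a2 (0.62 ± 0.12, adjusted p = 0.0048), Col4a1 (0.53 ± 0.09, adjusted p = 0.0032) and Hspg2 (0.50 ± 0.09, adjusted p = 0.0050) followed. Nid1 only just passed (0.52 ± 0.15, adjusted p = 0.049) and was not called by DESeq2 (0.51, adjusted p = 0.11), without 3i (0.34, adjusted p = 0.084) or without day 1 (0.53, adjusted p = 0.37). Without day 1, Col4a1 (0.39, adjusted p = 0.15), Col4a2 (0.48, adjusted p = 0.13) and Hspg2 (0.51, adjusted p = 0.13) were lost too, and Lama1 and Lamb1 held. In the same comparison, 4 of 13 tested extraembryonic endoderm markers rose, and their part in these differences was not tested.

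KO+WT against f/f had 3 genes higher and 1 lower, where 3.65% of all genes were higher and 5.17% lower. Nid1 rose 1.56-fold (0.64 ± 0.15, adjusted p = 0.020), Hspg2 1.32-fold (0.40 ± 0.09, adjusted p = 0.020) and Lamb1 1.22-fold (0.29 ± 0.05, adjusted p = 0.0044). Nid1 was past 2-fold at 3i (2.04-fold), as 0.624% of all genes were, and was 1.36-fold and 1.30-fold higher at day 1 and day 2. Col4a1 fell by 0.34 ± 0.09 (adjusted p = 0.042), a call lost under library totals (-0.30, adjusted p = 0.075), without the second libraries (-0.30, adjusted p = 0.090), without day 1 (-0.37, adjusted p = 0.17) and without day 2 (-0.29, adjusted p = 0.15). Without day 1 the 3 higher genes also lost their calls (Nid1 0.72, Hspg2 0.44 and Lamb1 0.24, adjusted p from 0.16 to 0.23), and Hspg2 did so without 3i (0.26, adjusted p = 0.053). The 3 comparisons with f/f share its samples.

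Fibroblast markers were also higher in KO+WT. Of 15 tested, 11 rose in KO+WT against f/f (such as Col6a3, 1.36 ± 0.21, and Col3a1, 1.07 ± 0.13) and 8 rose against KO (such as Col6a1, 0.92 ± 0.19). Their summed level at 3i was 553 CPM in f/f, 529.8 in KO, 810.3 in KO+WT and 485 in KO+N-KR. In KO+N-KR against f/f, 2 of 15 rose (Col6a3 and Col3a1), while Nid1 at 3i was 437 CPM. Between KO+N-KR and KO+WT, 1 of the 15 fell (Col5a2, -0.62 ± 0.13, adjusted p = 0.048). Without 3i, the KO+N-KR minus KO+WT differences were 1.19 for Lama1, 1.01 for Col4a1 and 1.10 for Col4a2 on the log2 scale, and all 3 passed the test. The shares of all genes called in each of these comparisons were given with the 9 genes above. The part of feeder RNA in the genotype differences of the 9 genes was not tested.

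After the mean of each state was taken out of log2 CPM, the 9 genes were compared over the 12 samples. Pearson's r, a description over samples that share 4 lines, was 0.98 between Col4a1 and Col4a2. Lama1 followed both Lamb1 (r = 0.83) and Col4a2 (r = 0.81). Lamc1 followed Nid1 (r = 0.84) and Nid1 followed Hspg2 (r = 0.85). Other pairs linked these genes, such as Lamb1 and Hspg2 (0.82), Lamc1 and Sparc (0.69), Lama1 and Hspg2 (0.66) and Lamb1 and Nid1 (0.65), while Lamc1 and Col4a1 gave 0.03 and Nid1 and Col4a1 gave -0.09.

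Over 10727 genes with a mean of at least 5 CPM, the genes most like the collagen IV pair by this measure were Cubn (r = 0.94), Dab2 (0.93), Pde9a (0.91), Flrt3 (0.88) and AU019823 (0.87). Cubn encodes cubilin, an endocytic receptor of visceral endoderm, and Dab2 an endocytic adaptor of the same tissue. Cubn was at 4.04 CPM in KO+WT and 13.1 in KO+N-KR at 3i, at 11.0 and 59.2 at day 1, and at 15.3 and 55.2 at day 2. It was higher in KO+N-KR by 2.06 ± 0.16 on the log2 scale (adjusted p = 2.6e-05), and Dab2 by 1.29 ± 0.17 (adjusted p = 0.0015). For the mean of the 3 laminin chain genes, the most alike were Jup (0.97), Lrpap1 (0.96), Top3b (0.95), Whrn (0.95) and 3110056O03Rik (0.94). These 5 had KO+N-KR minus KO+WT differences of 0.10 to 0.22 with adjusted p from 0.22 to 0.91.

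Markers of extraembryonic endoderm, a tissue that makes these matrix proteins, were called in several of the same comparisons, though not always beside the same matrix genes. Of 13 tested, 3 rose in KO+N-KR against KO+WT: Cubn, Dab2 and Amn (1.75 ± 0.33, adjusted p = 0.032), the partner of cubilin. In KO+WT against KO, 6 of 13 fell, among them Cubn (-1.39 ± 0.16), the transcription factor genes Gata6 (-1.40 ± 0.34) and Gata4 (-1.20 ± 0.27), and the transthyretin gene Ttr (-2.74 ± 0.59); the collagen IV pair fell there and Lama1 was not called. In KO+N-KR against KO, 4 rose (Amn, Cubn, Dab2 and Lrp2), where Lama1 rose and the collagen IV pair was not called. In KO+N-KR against f/f, 4 rose as well (Sox7, 1.33 ± 0.36; Dab2, 1.15 ± 0.16; Cubn, 1.09 ± 0.15; and Lrp2, 0.43 ± 0.07). In KO against f/f, 1 rose (Sox7, 1.42 ± 0.35, adjusted p = 0.030). In KO+WT against f/f, 3 fell (Ttr at -2.35 ± 0.62, Gata6 at -1.34 ± 0.35 and Cubn at -0.97 ± 0.16) and 1 rose (Lrp2 at 0.31 ± 0.07). Ttr had at most 2 counts per summed sample at 3i and day 1, and 5 to 28 at day 2, so its fold changes rest on few reads. The shares of all genes called in these comparisons are given above. The summed level of the list ran from 33.9 to 56.8 CPM at 3i and from 202 to 299 CPM at day 2. KO+N-KR had the highest sum in each state. Lrp2 alone was at 9.31 to 13.8 CPM at 3i and 130 to 186 CPM at day 2, most of the day 2 sum. The transcription factors stayed low, with Gata4 at 1.27 to 9.42 CPM, Gata6 at 1.17 to 6.69 CPM and Sox7 at 0.669 to 3.84 CPM over the 12 samples. From 3i to day 2, 7 of 13 endoderm genes rose, where 33.0% of all genes rose, while Lama1 and most of the matrix genes fell. The part of endoderm cells in the genotype differences was not tested.

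**Figure D4:**
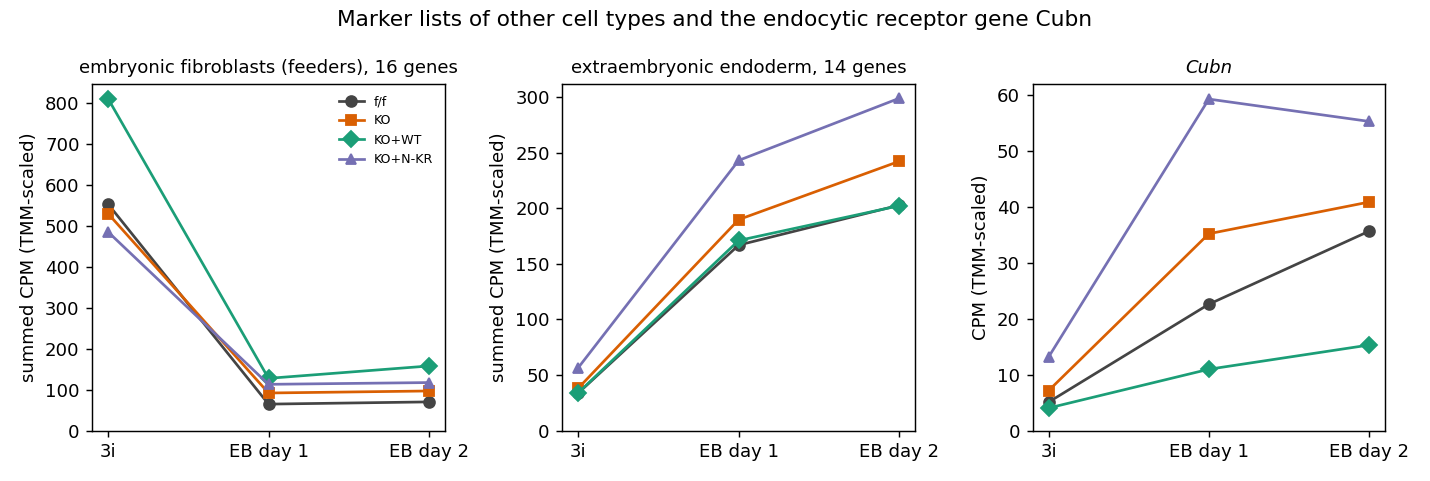
Summed CPM of fibroblast markers (left) and extraembryonic endoderm markers (middle), and CPM of Cubn (right), on y axes from 0, in 3 states (x axis) for 4 genotypes, 1 point per summed sample. Fibroblast markers are highest at 3i, and most so in KO+WT at 810.3 CPM, while the endoderm sum and Cubn are highest in KO+N-KR in each state. Lrp2 makes up most of the endoderm sum in embryoid bodies.

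The parietal endoderm list holds Lama1 and Lamb1 themselves. Of its 8 genes, 2 rose in KO+N-KR against KO+WT, Lama1 and Dab2, where 0.296% of all genes rose. In KO+N-KR against f/f, 6 rose (3.75% of all genes), among them Lama1, Lamb1, Sox7, Dab2 and Thbd. In KO+WT against f/f, 3 rose (3.65% of all genes), which were Thbd, Fst and Lamb1. In KO against f/f, 3 rose (4.45% of all genes), which were Sox7, Lama1 and Lamb1. Against f/f, Thbd was at 1.04 ± 0.25 in KO+N-KR and at 1.11 ± 0.25 in KO+WT. Markers of endothelium and blood summed to 11.5 to 24.2 CPM and those of neurons to 113 to 319.9 CPM over the 12 samples. In KO+WT against KO, 1 of 3 tested endothelium and blood genes fell (Plvap, -1.04 ± 0.20). Of 4 neuron genes, 1 rose (Neurod1) and 1 fell (Tubb3), where 7.10% of all genes rose and 8.73% fell. The same 3 genes were called in the same directions in KO+N-KR against KO, where 6.77% of all genes rose and 8.67% fell. Against f/f, Tek and Neurod1 rose and Plvap fell in both rescue lines, and Tubb3 and Elavl3 fell in KO+N-KR. There, 3.65% and 3.75% of all genes rose and 5.17% and 5.23% fell.

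The other genes of the pathway followed the 9 genes only in places. Of 7 tested other laminin chain genes, 6 fell and 1 rose from 3i to day 1. The largest falls were in Lama2 (-3.62 ± 0.38), Lamb3 (-1.55 ± 0.37) and Lamb2 (-1.50 ± 0.08). Lama2 had 26 to 49 counts per summed sample at 3i and 1 to 4 at day 1. Lamb3 had 24 to 83 and 16 to 20, so the changes of Lama2 and Lamb3 rest on few reads. From 3i to day 2, 5 of the 7 genes fell and 2 rose. Of all genes tested, 33.2% fell and 32.4% rose to day 1, and 30.5% fell and 33.0% rose to day 2. Lama5, whose alpha 5 chain pairs with the same beta 1 and gamma 1 chains, was named here after its values were seen: it rose by 0.35 ± 0.05 on the log2 scale to day 2 (adjusted p = 3.2e-05), where Lama1 fell by 2.28 ± 0.11. Per kb of exon, Lama5 was at 23.7, 19.7 and 33.8 CPM in f/f over the 3 states. Lama5 was higher than in KO by 0.38 ± 0.06 in KO+WT and by 0.39 ± 0.06 in KO+N-KR, so it rose in both rescue lines, where Lama1 was called in KO+N-KR and not in KO+WT.

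Of 2 tested other collagen IV chain genes, both fell to day 1 (Col4a5, -2.89 ± 0.20, and Col4a6, -2.20 ± 0.41), and the 4 genes of this list summed to 1.18 to 14.8 CPM. Of 17 other basement membrane genes, 9 fell and 6 rose to day 1, where 33.2% of all genes fell and 32.4% rose. To day 2, 7 fell and 8 rose, where 30.5% of all genes fell and 33.0% rose. Fras1 (3.92 ± 0.35) and Frem1 (3.63 ± 0.40), which encode partners in one matrix complex at epithelial borders, rose to day 2 from very low levels. Fras1 had 2 to 8 counts per summed sample at 3i and 48 to 84 at day 2. Frem1 had 1 to 2 counts at 3i and 13 to 23 at day 2, so these fold changes rest on few reads. Between the rescue lines, 1 of these 17 was called, Smoc1, a SPARC-related gene that was lower in KO+N-KR by the test (-0.55 ± 0.09, adjusted p = 0.0081).

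Among 11 tested receptors for laminin and collagen, Itgb1, the integrin beta 1 chain gene, was lower in both rescue lines than in KO (-0.58 ± 0.06 in KO+WT and -0.69 ± 0.06 in KO+N-KR). It was at 350.0 CPM in f/f, 363 in KO, 232 in KO+WT and 232 in KO+N-KR at day 1. Over this list, 1 rose and 2 fell in KO+WT against KO, where 7.10% of all genes rose and 8.73% fell. In KO+N-KR against KO, 3 rose and 2 fell, where 6.77% of all genes rose and 8.67% fell. The collagen receptor gene Ddr1 rose in both (0.47 ± 0.10 and 0.57 ± 0.10). Of 13 genes for collagen biosynthesis, 1 rose and 3 fell in KO+WT against KO: Glt25d1 (-0.48 ± 0.06), a collagen galactosyltransferase gene, the lysyl hydroxylase gene Plod1 (-0.43 ± 0.11) and Serpinh1 (-0.38 ± 0.12), which encodes a collagen chaperone. From 3i to day 1, 10 of the 13 fell, led by the prolyl hydroxylase genes P4ha2 (-1.35 ± 0.18) and P4ha1 (-1.12 ± 0.14). Of all genes tested, 33.2% fell in this step.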

How the data were processed

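Raw counts per gene symbol (23284 rows, 30 columns) were deposited by the authors. Of the columns, 24 carry a library name found in the labels and entered the analysis, and 6 were not used. The submitters' processing notes name STAR 2.5.2b, DESeq2 and mm9. How reads were counted, with which strand setting and annotation, is not given in the sources used here.

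The 2 libraries of each group were summed, because they differed by little more than sampling noise. The 12 samples were fitted with edgeR 4.0.16 (genes kept by filterByExpr, TMM scaling, an additive quasi-likelihood model of genotype and state, 6 residual degrees of freedom, common coefficient of variation 7.97%) in R 4.3.3, with Benjamini-Hochberg adjustment over the 15220 genes tested and a threshold of 0.05. Each SE is the log2 fold change over the square root of its F value. Within a state, ratios used a prior count of 2, and genes past 2-fold with at least 5 CPM were counted without a test. CPM per kb used GENCODE vM21 exon lengths (GRCm38) for levels only. On simulated data for KO against f/f over the 3 states, the fit recovered 57%, 77% and 97.5% of 200 genes changed 1.5-, 2- and 4-fold. It made 5, 21 and 16 false calls in the same order.

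Replicate numbers did not pair the libraries of different genotypes. Named genes were all 9 members, up to 4 called genes of the largest change per comparison and list, and the 5 genes most like each of 2 anchors (the laminin chain genes and the collagen IV pair). Lama5 at day 2 against 3i falls outside that rule. The members and all gene lists were chosen with earlier results of these data known. Alternatives were library totals, DESeq2 1.42.0, no filter, each library number left out, 24 libraries with and without a replicate block, each state or genotype left out, only the 2 genotypes compared, and, for levels, no length scaling.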

Additional observations from a re-analysis of the deposited data

How the results depend on the processing

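Of 44 called differences of the 9 genes, 27 kept their call under every alternative run for them, 17 lost it under at least 1, and none changed sign. The cause was not tested for any of the following changes.

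KO minus f/f had 3 genes higher; there were 5 without 3i, and none without day 1 or day 2 by edgeR (0 and 0, with 4 and 3 genes at an unadjusted p under 0.05; DESeq2 on all samples called 4), and 1 to 4 with a library number left out. KO+WT minus KO had none higher by edgeR or DESeq2 (3 at an unadjusted p under 0.05); there was 1 with no filter, 1 with either library number left out and 2 without day 2, and its 2 lower genes became 1 without day 1 and 1 without day 2. KO+N-KR minus KO had 3 higher, which became 5 without 3i, 1 without day 1 and 5 without day 2. KO+WT minus f/f had 3 higher and 1 lower; without day 1 both became 0 by edgeR (4 and 1 at an unadjusted p under 0.05; DESeq2 on all samples called 3 and 1), and the lower gene was also lost under library totals and without day 2 (0, with 1 at an unadjusted p under 0.05), and was 0 to 1 with a library number left out. KO+N-KR minus f/f went from 6 to 2 without day 1. Under library totals, day 1 minus 3i went from 1 higher to 0 by edgeR (0 at an unadjusted p under 0.05; DESeq2 called 1). The size count was 0 to 1 with a library number left out for KO+WT and for KO+N-KR against f/f at 3i. Without length scaling, level ranks became 5 for Lamb1, 1 for Lamc1, 2 for Sparc, 6 for Nid1, 4 for Nid2 and 3 for Hspg2.

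Same-numbered libraries did not deviate together (correlations -0.04 to 0.04, median 0.01). With the replicate block, and equally with 24 libraries and no block (common coefficient of variation 0.988%), counts higher were 6 for KO minus f/f, 4 for KO+WT minus KO, 9 for KO+N-KR minus KO, 7 for KO+N-KR minus KO+WT and 5 for KO+WT minus f/f. Counts lower were 1 for KO minus f/f, 1 for KO+N-KR minus KO+WT, 2 for KO+WT minus f/f and 5 for day 2 minus day 1.

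Uncalled differences changed sign as follows. KO minus f/f gave, for Lamc1, 0.050 under library totals, -0.015 to 0.015 with a library number left out, 0.027 without day 1 and 0.018 without day 2, and for Nid2 0.051 under library totals and -0.019 to 0.011 with a library number left out. KO+WT minus KO gave 0.021 for Lama1 without day 1, and -0.034 for Nid2 and -0.14 for Hspg2 without 3i. KO+N-KR minus KO gave -0.00378 for Hspg2 without 3i. KO+N-KR minus KO+WT gave, for Lamc1, -0.00125 to 0.013 with a library number left out, -0.00563 without day 1 and -0.039 without day 2. Without 3i, KO+WT minus f/f gave -0.064 for Sparc and -0.050 for Nid2, and KO+N-KR minus f/f gave -0.00987 for Nid2. Day 2 minus 3i gave, for Col4a1, -0.00833 under library totals, -0.015 without KO and -0.025 without KO+N-KR. Day 2 minus day 1 gave -0.14 to 0.017 for Lama1 with a library number left out.

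Over all genes, KO minus f/f called 678 higher and 657 lower, 145 and 194 without day 2, 417 and 372 without replicate 1, 478 and 385 with only the 2 genotypes, 3442 and 3783 with the replicate block, and 0 and 0 by edgeR without day 1. KO+WT minus KO called 1081 and 1329, 74 and 151 without day 1, 554 and 709 without day 2, and 3874 and 3652 with the block. KO+N-KR minus KO called 1031 and 1319, 108 and 220 without day 1, 453 and 652 without day 2, 328 and 590 with only the 2 genotypes, and 3871 and 3704 with the block. KO+N-KR minus KO+WT called 45 and 39, 15 and 15 without day 1, 102 and 108 with only the 2 genotypes, and 1366 and 1614 with the block, and its lower count was also 69 by DESeq2, 59 with no filter and 25 without replicate 1. KO+WT minus f/f called 556 and 787, 40 and 135 without day 1, and 3268 and 3338 with the block, and KO+N-KR minus f/f 570 and 796, 47 and 127, and 3148 and 3294. Library totals alone moved the median of all genes by -0.11 at day 1 minus 3i, with 4007 higher and 6061 lower against 4938 and 5046, and day 2 minus day 1 from 4288 and 4133 to 4995 and 3385.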
